A study of Mus musculus with 32 samples.

Results

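The glucocorticoid receptor (GR) peaks that lay outside every accessible site of the liver were a small minority. They were chosen by position alone, as the GR intervals that shared no base with any DNase I hypersensitive site (DHS) of the dexamethasone list and none of the vehicle list. Of 11666 GR peaks, 380 met this rule (3.26%), and all of them are covered below. The DNase and GR lists chose them, so gaps to DHS and the spacing of GR peaks are given here as descriptions. Tests were kept for C/EBPβ, whose lists the rule did not use. Most C/EBPβ peaks lie in DHS, however, so tests against GR peaks in DHS depend in part on the choice of peaks.

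The livers were those of male C57BL/6 mice, 8 weeks old, with both adrenal glands removed in every group, so that little glucocorticoid of their own was left. Mice received 1 mg/kg of dexamethasone, a synthetic GR ligand carried in a cyclodextrin complex, or cyclodextrin vehicle, in 300 ul of saline, and the series' design text gives 1 h of treatment. For each of these treatments the labels list 2 samples of DNase-seq, 2 of C/EBPβ ChIP-seq and 2 of GR ChIP-seq. Further samples of the series, among them those of livers given an adenovirus, were not analysed here. What was deposited and used is 1 interval list per assay and treatment: 63473 DHS for dexamethasone and 56794 for vehicle, 25392 C/EBPβ peaks for dexamethasone and 22714 for vehicle, and 1 GR list that names no treatment. The lists hold mm9 positions and nothing on signal or replicates. The depth behind a peak is unknown, no value has a replicate check, and every p-value compares classes of regions and not animals. Positions carry no expression readout, so the liver label was not checked against marker genes. Gene names were not assigned to peaks, and no peak sequence is printed, since the gene and promoter tables at hand refer to another build than mm9.

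GR is a nuclear receptor that enters the nucleus when it binds hormone and contacts DNA at glucocorticoid response elements or through other DNA-bound factors. DNase I cuts DNA where nucleosomes are displaced or loosened, so a DHS marks DNA that regulatory proteins can reach, and GR is known to bind largely at such sites. C/EBPβ is a basic leucine zipper factor of hepatocytes that binds its own motif, and the title of the series asks whether C/EBP proteins keep liver chromatin accessible and help GR to bind. Peaks of GR without a DHS are thus the cases in which receptor binding was called and accessibility was not.

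The boundary between peaks inside and outside DHS was sharp. Of the 11286 GR peaks that touched a DHS, 11244 lay in one with all 150 bp of the peak, and 42 reached over its edge. The smallest overlap was 11 bp, at the GR peak from 147549018 to 147549168 on chromosome 2. The next were 19 bp and 22 bp at peaks that began at 165338493 and 38385777 on chromosome 2, and 20 bp and 29 bp at peaks that began at 24347801 and 126241958 on chromosome 8. On the other side of the rule, 12 GR peaks lay 1 to 50 bp from a DHS, 2 lay 51 to 100 bp away and 9 lay 101 to 150 bp away. The 5 nearest began at 120693903 on chromosome 11 and 113146714 on chromosome 12 (4 bp each), at 30998487 on chromosome 12 (8 bp), and at 21568376 on chromosome 9 and 34806779 on chromosome 16 (10 bp each). For the peak on chromosome 11 the gap was 4 bp in the dexamethasone list and 120 bp in the vehicle list. For that at 113146714 on chromosome 12 it was 80 bp in the dexamethasone list and 4 bp in the vehicle list. At both peaks the edge of the site thus differed between the lists by more than the gap itself. Few peaks stood so near the line, and most were well away from it.

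The gap between a peak outside all DHS and its nearest DHS had a median of 3199 bp, with quartiles of 859 and 8439 bp. It was 1000 bp or less for 104 of the 380 (27.4%), 10000 bp or less for 304 (80.0%) and over 20 kb for 35. These peaks were therefore not remote as a rule, and most had accessible chromatin close by. Leaving out any DHS that a peak itself touched, they had a median of 8 dexamethasone DHS centres within 50 kb, against 7 for the 2050 GR peaks that touched a dexamethasone DHS but no vehicle DHS and 8 for the 9236 that touched a vehicle DHS. The first of these classes is called dex-gained positions below and reads "dex DHS outside vehicle DHS" in the plots. The 5 most remote peaks were exceptions. The farthest lay from 27868476 to 27868626 on chromosome 19, with its nearest DHS 120771 bp away. The others began at 78409654 on chromosome 18 (85726 bp), 49173423 on chromosome 19 (75828 bp), 91257946 on chromosome X (71076 bp) and 8381394 on chromosome 4 (53198 bp). The first and the last of these 5 nonetheless overlapped dexamethasone C/EBPβ.

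**Figure D1:**
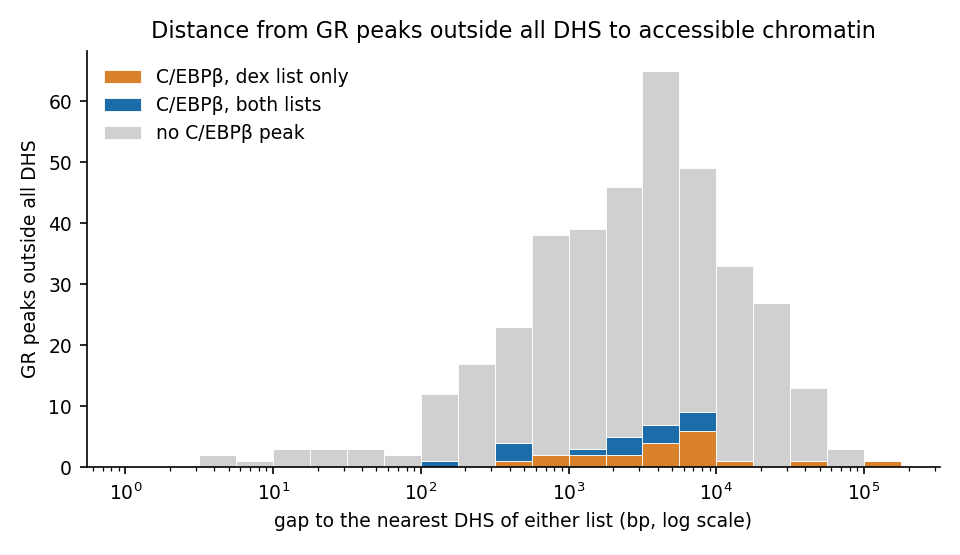
The 380 GR peaks outside all DHS by the number of bases between the peak and the nearest DHS of either list (log axis), coloured by the C/EBPβ lists in which the peak was also covered. The central part of the peaks lies between 859 and 8439 bp (median 3199 bp), and the 34 peaks with C/EBPβ range from 133 to 120771 bp.

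The accessible sites next to these peaks were mostly in both lists, as were DHS in general. The nearest DHS was in both lists for 260 peaks (68.4%, 95% Wilson interval 63.6 to 72.9, given in the same way for the shares below), in the dexamethasone list only for 91 (23.9%, 19.9 to 28.5) and in the vehicle list only for 29 (7.63%, 5.37 to 10.7). Over the 69980 regions covered by either list, with overlapping DHS merged, these shares were 66.9%, 21.2% and 11.9%. For the 260 peaks beside a DHS of both lists, the dexamethasone edge was the nearer one in 139 and the vehicle edge in 117, with 4 at the same distance. Among the 74 such peaks with a gap of 1000 bp or less, the dexamethasone edge was nearer in 44 and the vehicle edge in 30. These are values of the lists that chose the peaks and were not tested. The nearest DHS itself held a GR peak in 94 cases (24.7%, 20.7 to 29.3) and a dexamethasone C/EBPβ peak in 135 (35.5%, 30.9 to 40.5). Over all DHS of the dexamethasone list these shares were 16.7% and 31.8%, whereas the nearest DHS was taken from either list.

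C/EBPβ was found at few GR peaks outside all DHS. Dexamethasone C/EBPβ overlapped 34 of the 380 (8.95%, 6.47 to 12.2), against 568 of 2050 GR peaks at dex-gained positions (27.7%, 25.8 to 29.7) and 6636 of 9236 in vehicle DHS (71.8%, 70.9 to 72.8). Over all GR peaks the share was 62.0%. The odds of a C/EBPβ peak were lower outside all DHS than at dex-gained positions, with an odds ratio of 0.256 (95% Woolf interval 0.178 to 0.369; two-sided Fisher's exact test p = 3.78e-17, Benjamini-Hochberg adjusted p = 1.26e-16 over the 10 odds ratios computed). Against GR peaks in vehicle DHS it was 0.0385 with an interval of 0.027 to 0.0549 (Fisher p = 3.39e-141, adjusted p = 1.7e-140). With only DHS above the median width counted, 576 of 1680 peaks outside them had C/EBPβ (34.3%), and the odds ratios were 0.577 and 0.183. C/EBPβ peaks were themselves rare outside DHS, where 2880 of 25392 dexamethasone peaks lay (11.3%). A low share here was thus set in part by the choice of peaks. The p-values above do not allow for that.

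More of the C/EBPβ peaks at these sites were absent from the vehicle list than present in it. Of the 34, 14 had a C/EBPβ peak in the vehicle list too and 20 did not (58.8%, 42.2 to 73.6). No GR peak outside all DHS had C/EBPβ in the vehicle list only, and a count of 0, taken to allow up to 3 peaks, allows a share of up to 0.789%. This was rare elsewhere too, at 0 of 2050 dex-gained positions and 37 of all 11286 GR peaks that touched a DHS (0.328%). The vehicle list covered 14 of the 380 peaks outside all DHS (3.68%), against 50.4% of all GR peaks. Among GR peaks with dexamethasone C/EBPβ, the share with none in the vehicle list was 72.2% at dex-gained positions (410 of 568), 14.5% in vehicle DHS (960 of 6636) and 19.2% over all GR peaks. The difference from vehicle DHS passed the test (odds ratio 8.45, 4.25 to 16.8; Fisher p = 3.28e-09, adjusted p = 8.19e-09). That from dex-gained positions did not (odds ratio 0.551, 0.271 to 1.12; Fisher p = 0.117, adjusted p = 0.13), and the interval, which rests on 34 peaks, runs from 0.271 to above 1. Both comparisons were chosen after the data had been seen. The vehicle DHS list set the classes, and most vehicle C/EBPβ peaks lie in DHS (19922 of 22714). The difference from vehicle DHS thus depends in part on the choice of classes, and its p-value does not allow for that.

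**Figure D2:**
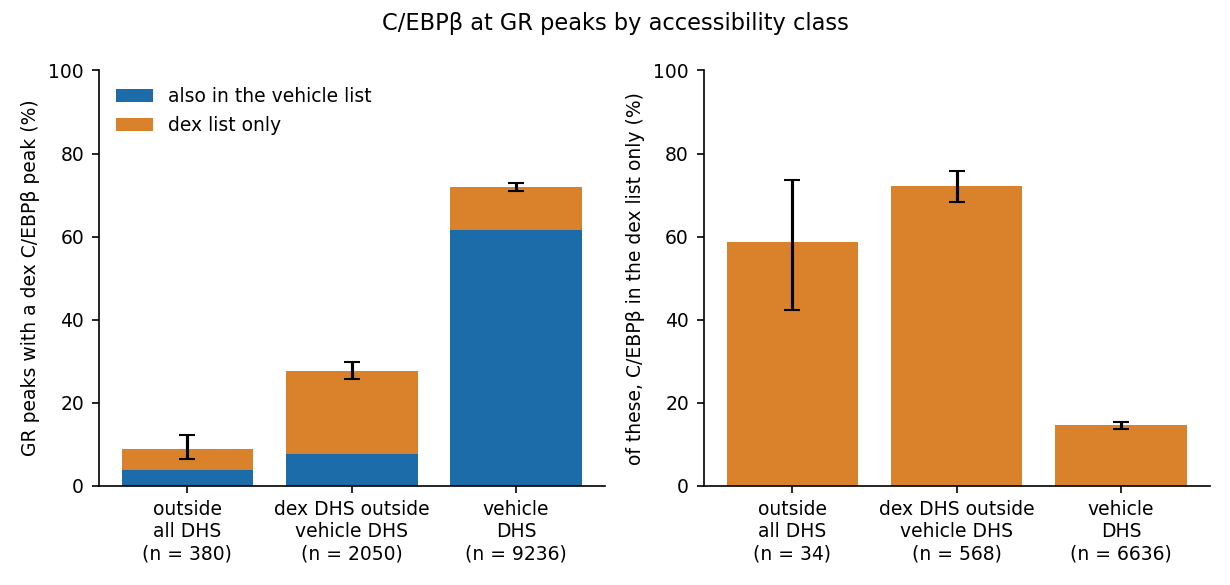
Left, the share of GR peaks with a dexamethasone C/EBPβ peak in each accessibility class, split by presence in the vehicle C/EBPβ list. Right, of the GR peaks with dexamethasone C/EBPβ, the share with none in the vehicle list. Bars start at 0, error bars are 95% Wilson intervals, and n is the number of GR peaks. The total is 8.95% outside all DHS, against 71.8% in vehicle DHS, while the share on the right is 58.8% outside all DHS, against 14.5% in vehicle DHS.

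The question was then turned round, to ask how often C/EBPβ peaks outside all DHS held GR. A GR peak overlapped 35 of these 2880 C/EBPβ peaks (1.22%, 0.875 to 1.69), of which 34 coincided with the GR peaks described here. For C/EBPβ peaks in a DHS the number was 7223 of 22512 (32.1%, 31.5 to 32.7), and over all C/EBPβ peaks of that list 28.6%. This difference is a description, since nearly all GR peaks lie in DHS and a low share outside them was largely set by that. Of the 35 with GR, 21 had no vehicle C/EBPβ peak (60%), against 734 of 2845 without GR (25.8%). This gave an odds ratio of 4.31 with an interval of 2.18 to 8.53 (Fisher p = 2.30e-05, adjusted p = 3.83e-05). Over all dexamethasone C/EBPβ peaks, 20% had no vehicle peak. Outside DHS, C/EBPβ peaks with GR were thus more often absent from the vehicle list than those without it. This comparison was chosen after the data had been seen, and its odds ratio was 1.89 with only DHS above the median width.

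Where GR and C/EBPβ met outside DHS, the median distance between their centres was similar to that elsewhere. Across the 34 peaks the median distance between centres was 18 bp (quartiles 10 and 27 bp, highest 57 bp). It was 17 bp at dex-gained positions (quartiles 8 and 32 bp, highest 158 bp) and 19 bp in vehicle DHS (quartiles 8 and 38 bp, highest 199 bp). Only peaks that overlapped were counted, which limits these distances in every class. Centres were 20 bp or less apart at 19 of the 34 (55.9%, 39.5 to 71.1), at 322 of 568 (56.7%, 52.6 to 60.7) and at 3484 of 6636 (52.5%, 51.3 to 53.7) in the same order. The intervals of these shares overlap, and that of the 34 peaks is wide.

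The closest pair of centres coincided, at the GR peak from 152107231 to 152107381 on chromosome 2. Its nearest DHS was 11828 bp away, its nearest other GR peak 78325 bp away, and its C/EBPβ peak was in the dexamethasone list only. The second, at 24507244 on chromosome 5, had centres 0.5 bp apart, C/EBPβ in both lists and a gap of 8795 bp. The third, at 121582459 on chromosome 14, had centres 2.5 bp apart and C/EBPβ in both lists. Its nearest DHS lay 24201 bp away in the dexamethasone list and 6932 bp away in the vehicle list. At 124158724 on chromosome 5, centres were 3 bp apart and C/EBPβ was in the dexamethasone list only. Here the nearest DHS was 736 bp away and itself in the dexamethasone list only, while the nearest vehicle DHS lay 11857 bp away. Of the next 6, those at 127582123 on chromosome 10 (4.5 bp) and at 123652109 and 125804445 on chromosome 5 (9 and 9.5 bp) had C/EBPβ in both lists. Those at 86193472 on chromosome 10 (8 bp), 91693132 on chromosome 6 (10 bp) and 87556475 on chromosome 7 (10 bp) had it in the dexamethasone list only. The 10 closest pairs were therefore evenly divided between C/EBPβ of both lists and of the dexamethasone list.

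The gap to a DHS did not separate peaks with C/EBPβ from those without. Its median was 3679 bp for the 34 with C/EBPβ (quartiles 1663 and 7193 bp) and 3149 bp for the 346 without (quartiles 822 and 8464 bp). Of the 34, 27 were more than 1 kb and 12 more than 5 kb from a DHS. The median gap was 4502 bp (512 to 120771 bp) for the 20 with C/EBPβ after dexamethasone alone and 2911 bp for the 14 with C/EBPβ in both lists (133 to 9894 bp). These ranges overlap between 512 and 9894 bp.

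**Figure D3:**
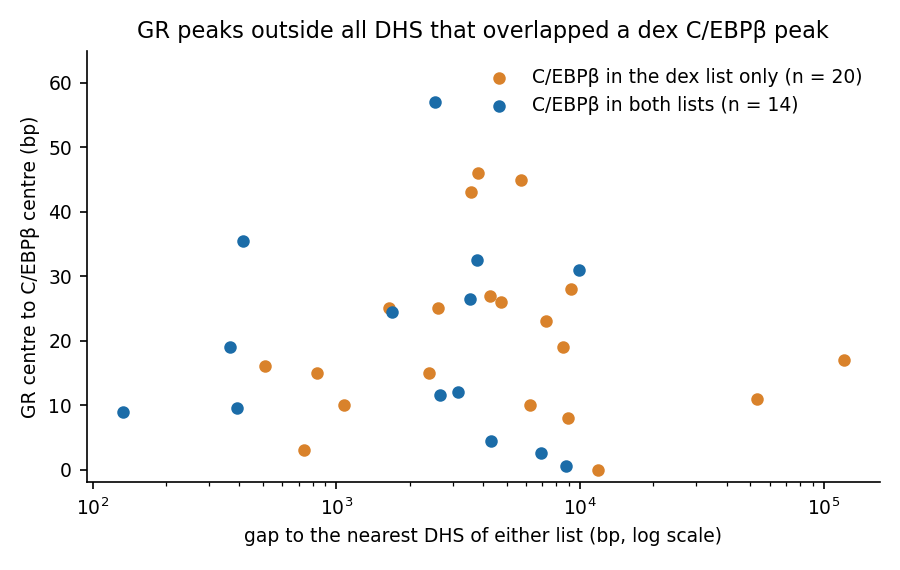
The 34 GR peaks outside all DHS that overlapped a dexamethasone C/EBPβ peak, by the gap to the nearest DHS (log axis) and the distance between GR and C/EBPβ centres. Colours give the C/EBPβ lists. All 14 peaks with C/EBPβ in both lists have a gap of 9894 bp or less, and the most remote points have C/EBPβ in the dexamethasone list only.

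The spacing of GR peaks followed the gap to a DHS. Because 11286 of the 11666 GR peaks lie in DHS, a peak far from any DHS is also far from most GR peaks, so these values are descriptions. Another GR centre lay within 10 kb of 147 of the 380 (38.7%, 33.9 to 43.7), against 5951 of 11286 other GR peaks (52.7%, 51.8 to 53.6) and 52.3% of all GR peaks. At dex-gained positions it was 936 of 2050 (45.7%). With neighbours up to 50 kb away the shares were 72.9% outside all DHS (68.2 to 77.1) and 73.2% at dex-gained positions (71.3 to 75.1). With the same limit the share was 79.5% in vehicle DHS (78.7 to 80.3) and 78.4% of the 11286 other GR peaks (77.6 to 79.1). Another GR centre lay within 10 kb of 61 of the 104 peaks with a gap of 1 kb or less (58.7%, 49.0 to 67.6) and of 86 of the 276 with a larger gap (31.2%, 26.0 to 36.9). For peaks close to a DHS, the interval of this share holds the 52.7% of the other GR peaks. For those farther away, the share and its interval lay below 52.7%. The median distance to the nearest other GR centre was 17243 bp, against 12700 bp at dex-gained positions and 7906 bp in vehicle DHS. Of the 147 nearest neighbours within 10 kb, 109 lay in vehicle DHS, 28 at dex-gained positions and 10 outside all DHS (6.8%, 3.74 to 12.1). Peaks outside all DHS made up 3.26% of all GR peaks, and this difference was not tested.

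C/EBPβ was common in the wider surroundings of these peaks. A dexamethasone C/EBPβ centre lay 1 to 50 kb away from 327 of the 380 (86.1%, 82.2 to 89.2), against 10126 of 11286 other GR peaks (89.7%, 89.1 to 90.3) and 89.6% of all GR peaks. The odds ratio of 0.707 (0.525 to 0.951) was just past the 0.05 threshold (Fisher p = 0.0259, adjusted p = 0.0324). It was 0.772 (Fisher p = 0.111) without chromosome 5, and leaving out chromosome 10, 11 or 19 also ended the call (odds ratios of 0.739, 0.735 and 0.757). With a limit of 100 kb it was 0.936 (Fisher p = 0.713). Against dex-gained positions (1750 of 2050, 85.4%) it was 1.06 (0.772 to 1.45; Fisher p = 0.812, adjusted p = 0.812), and no difference was called. The interval leaves room for odds from 0.772 to 1.45 times those of dex-gained positions. Most C/EBPβ peaks lie in DHS (22512 of 25392), so this measure depends in part on the choice of peaks, and the p-values do not allow for that. Within 1 kb a dexamethasone C/EBPβ centre was found at 63 of the 380 peaks (16.6%), 37.3% of GR peaks at dex-gained positions and 80.3% of those in vehicle DHS.

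Among the peaks outside all DHS, the surroundings changed with the gap while the share with C/EBPβ at the peak stayed low throughout. C/EBPβ at the peak was found in 1 of 29 peaks with a gap of up to 0.2 kb (3.45%, 0.611 to 17.2), 6 of 75 up to 1 kb (8%, 3.72 to 16.4), 15 of 139 up to 5 kb (10.8%, 6.65 to 17.0), 10 of 102 up to 20 kb (9.80%, 5.41 to 17.1) and 2 of 35 beyond (5.71%, 1.58 to 18.6). All 5 intervals overlap. In the same order another GR centre lay within 10 kb of 75.9%, 52%, 46.8%, 20.6% and 0% of peaks, where the 0 of 35 allows a share of up to 8.57% by the same 3 counts. A C/EBPβ centre lay 1 to 50 kb from 86.2%, 94.7%, 92.1%, 81.4% and 57.1%. Since most C/EBPβ peaks lie in DHS, these shares too depend in part on the gap itself. Peaks far from a DHS were thus isolated from other GR peaks, which the rule largely fixes, and 41 of the 380 had neither another GR centre nor a dexamethasone C/EBPβ centre within 50 kb (10.8%, 8.05 to 14.3). The same held for 181 of 2050 GR peaks at dex-gained positions (8.83%, 7.68 to 10.1) and 175 of 9236 in vehicle DHS (1.89%, 1.64 to 2.19). Over all GR peaks it held for 397 of 11666 (3.4%). In each of these shares a C/EBPβ peak at the GR peak itself counts as near.

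**Figure D4:**
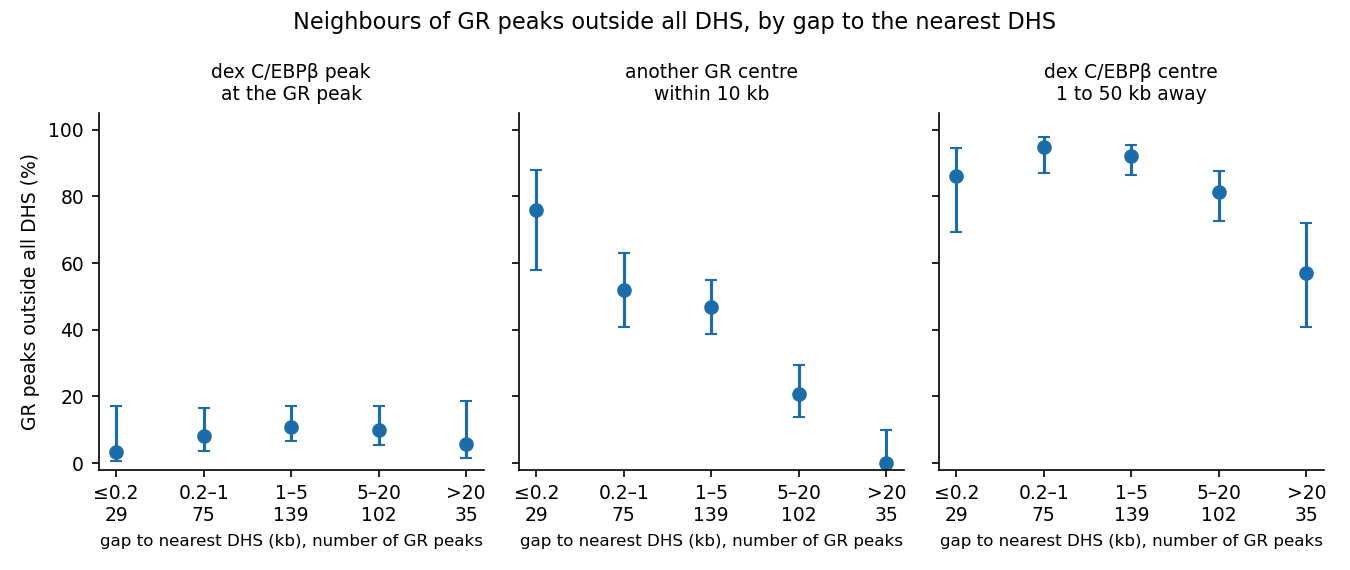
Shares of GR peaks outside all DHS by the gap to the nearest DHS in kb, with the number of peaks in each gap class under the axis and 95% Wilson intervals as error bars. The share with C/EBPβ at the peak is between 3.45% and 10.8% in every class, whereas the share with another GR centre within 10 kb is 75.9% in the first class and 0% in the last.

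GR peaks outside all DHS were scattered over the genome and seldom lay side by side. They were found on all 20 chromosomes that held GR peaks, and those with C/EBPβ on 15. Their share of a chromosome's GR peaks ranged between 1.98% on chromosome 13 (11 of 555) and 4.77% on chromosome 9 (29 of 608). The Wilson interval held the overall 3.26% on 19 of the 20 chromosomes, the exception being chromosome 9 (3.34 to 6.77). With 20 intervals at the 95% level, the level itself allows for 1 such exception. Of the windows of 100 kb, 334 held 1 of these peaks, 20 held 2 and 2 held 3.

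The windows with 3 began at 96300000 on chromosome 3 and 34900000 on chromosome 16. The window on chromosome 3 had 6 GR peaks in all, 8 dexamethasone C/EBPβ peaks, 15 dexamethasone DHS and 19 vehicle DHS. That on chromosome 16 had 7 GR peaks, 2 dexamethasone C/EBPβ peaks, 6 dexamethasone DHS and 8 vehicle DHS. In both windows the peaks outside all DHS lacked C/EBPβ, as did 346 of the 380 (91.1%). The next in the order of position began at 67800000 on chromosome 2, 130400000 on chromosome 5 and 149700000 on chromosome 5, with 2 each. Of the 380, 6 had another such peak within 2 kb, as 3 pairs. These lay 310 bp apart on chromosome 18 (from 38955464), 616 bp apart on chromosome 3 (from 96355351) and 1380 bp apart on chromosome 8 (from 11380674). None of these 6 had C/EBPβ, which 91.1% of the 380 lacked, and their gaps ranged between 2609 and 11798 bp. Among the 56 with any other GR centre within 2 kb, the nearest lay outside all DHS for 6 (10.7%, 5.0 to 21.5). Such peaks made up 3.26% of all GR peaks, and this difference was not tested.

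**Figure D5:**
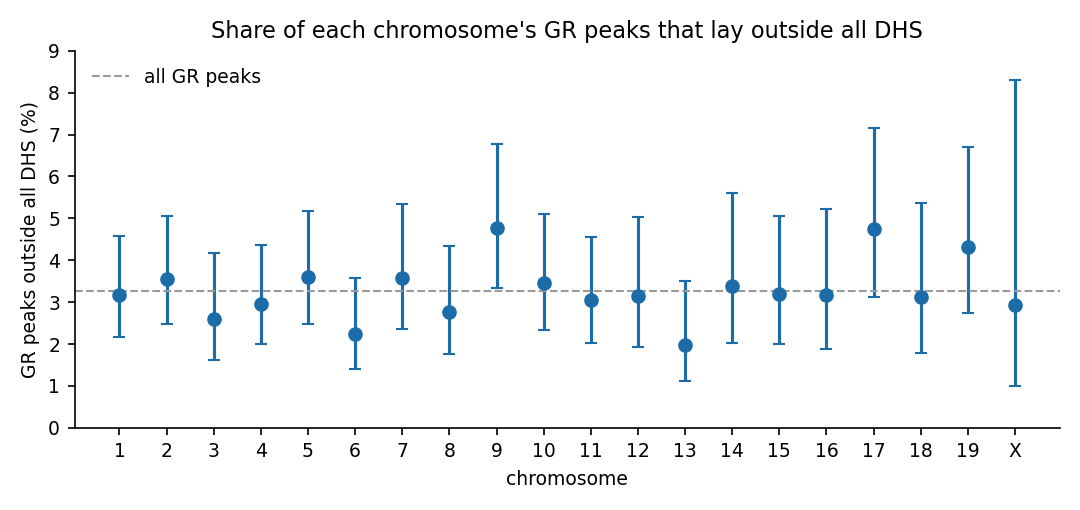
Share of each chromosome's GR peaks that lay outside all DHS, with 95% Wilson intervals, and the share over all GR peaks (3.26%) as a dashed line. Points lie between 1.98% and 4.77%, and the line passes through the interval of every chromosome but 9.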

How the data were processed

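The authors deposited 5 interval lists, whose values are mm9 start and end positions with a running identifier, per the file headers and names. The submitters' processing notes name CASAVA 1.8. Which aligner, peak caller and threshold were used, and whether samples were pooled, is not given in the sources used here. A C/EBPβ peak in both lists has identical coordinates in each, and how the authors matched the lists is not stated. All GR intervals are 150 bp wide and were read as half-open. Positions are printed as in the files, which do not state whether counting starts at 0 or 1. Columns of per-sample values left unused numbered 0.

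Overlap meant 1 bp or more, gaps are bases between intervals, and other distances run between centres. Shares have 95% Wilson intervals and odds ratios 95% Woolf intervals, which cover counting error only. A count of 0 was taken to allow 3. Regions near each other are not independent, so p-values may be too small. Of the 10 odds ratios, 6 were chosen after seeing the data. The 3 on GR spacing and on GR at C/EBPβ peaks are given as descriptions, with no p-value, since the rule used the GR and DHS lists. Their p-values nonetheless stayed in the Benjamini-Hochberg adjustment over 10, so the adjusted values of the others may be too small. The members and comparisons were chosen with earlier results of these data known.

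Named were the 10 members with the closest C/EBPβ centres (20 bp or less), the 5 farthest from and the 5 nearest to a DHS, the 5 GR peaks of smallest overlap, the 5 windows of 100 kb with most members and pairs within 2 kb. A planned motif comparison was not run, since no mm9 sequence was used here. Counting and odds ratios were tested on simulated lists, and 3 counts equalled those of bedtools 2.31.1. Alternatives changed the overlap rule, DHS, chromosomes, C/EBPβ list and distances. The software was pandas 2.3.3, scipy 1.17.1 and numpy 2.4.6 under Python 3.11.15, with matplotlib 3.10.9 for plots.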

Additional observations from a re-analysis of the deposited data

How the results depend on the processing

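Across the alternatives, 90 of 98 recomputed odds ratios kept their direction and their side of the 0.05 threshold. The 98 include the 3 odds ratios given as descriptions, for which 11 of 11, 10 of 11 and 8 of 8 alternatives did so. The lists used by the rule set those in part, so they lend the count no support. The odds ratio of C/EBPβ against dex-gained positions ranged from 0.229 to 0.577 and that against vehicle DHS from 0.0236 to 0.183. As descriptions, the odds ratio of another GR peak within 10 kb against all other GR peaks was 0.566 and ranged from 0.476 to 0.741. That of GR at C/EBPβ peaks outside against in DHS was 0.026 and ranged from 0.0231 to 0.133, the highest with DHS above the median width. The odds ratio of C/EBPβ without a vehicle peak against vehicle DHS, 8.45, ranged from 3.18, under that same setting, to 11.8, and that of C/EBPβ without a vehicle peak, with GR against without it outside DHS, from 1.89 to 5.92. The share of GR peaks outside all DHS was 2.74% with a gap of at least 500 bp and 14.4% with DHS above the median width, which drops DHS by construction. Under that last setting 576 of 1680 peaks had C/EBPβ (34.3%) in place of 8.95%, and the odds ratio of 0.551 became 0.614 and passed the threshold. The C/EBPβ neighbourhood ratio of 0.707 was 0.936 with a limit of 100 kb and 0.772 without chromosome 5, neither past the threshold. Against dex-gained positions, where it was 1.06 and not past it, the ratio was 0.948 with a gap of at least 500 bp, 0.846 with DHS above the median width, 0.955 with a limit of 20 kb and 0.977 at the lowest without 1 chromosome. That of GR neighbours against the same positions, 0.751, was 0.984 with a limit of 50 kb. Against all other GR peaks the ratio of GR neighbours was 0.741 with that limit, in place of 0.566. Where no cause is given it was not tested. No paired analysis was possible because the lists carry no replicate columns. For the same reason no replicate could be left out, and the motif alternatives were not run. Without heights or counts, depth sets limits that are unknown here.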
